A study of Arabidopsis thaliana with 8 samples.

Results

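The 42 genes described here are those of the plastid chromosome that serve gene expression and other tasks outside photosynthesis, and those of the mitochondrial genome, as far as a probe set of the ATH1 array names exactly 1 of them. They comprise 4 rpo genes for subunits of the plastid RNA polymerase, 8 rps and 7 rpl genes for proteins of the small and large ribosomal subunits of the plastid, 7 other plastid genes and 16 mitochondrial genes, out of 13350 genes that single-gene probe sets name. Members were taken by chromosome and symbol, leaving out plastid genes that begin with psa, psb, pet, atp or ndh and rbcL, and the brightest probe set stood for a gene with several. The polymerase is represented by rpoA, rpoB, rpoC1 and rpoC2, and the small subunit by rps2, rps3, rps4, rps14, rps15, rps16, rps18 and rps19. The large subunit is represented by rpl14, rpl16, rpl20, rpl22, rpl32, rpl33 and rpl36. Listed with the other plastid genes are accD, ccsA, cemA, clpP, matK, ycf3 and ycf4. Mitochondrial members are nad1, nad2, nad4, nad4L, nad5, nad6, nad7, nad9, cox1, cox2, ccmB, ccmFC, ccmFN1, ccmFN2, mttB and matR. A further 6 plastid genes outside photosynthesis (rpl2, rpl23, rps7, rps12, ycf1 and ycf2) are read by probe sets that give a gene number for each copy, so they are not members.

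Plastids keep a small genome with a bacterial-type RNA polymerase, whose core subunits are plastid-encoded, and bacterial-type ribosomes, whose proteins come partly from the plastid and partly from the nucleus. Nuclear-encoded polymerases of the phage type also read organelle genes, and genes of the expression machinery, the rpoB operon among them, are classically read by them. Many plastid genes lie in clusters that are transcribed together and then cut and spliced, so that messages of neighbours share a precursor. The mitochondrial genome encodes core subunits of respiratory complexes, factors for maturation of c-type cytochromes and a few other proteins. Organelle messages mostly lack long poly(A) tails, and how the cDNA was primed is not given in the sources used here.

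Signals came from 8 arrays of total RNA of young Arabidopsis thaliana leaves, accession Col-0, taken at 0 h from leaf insertions 19 to 21. The elevated group (4 arrays) came from plants in elevated CO2, given as 750 ppm after a 24 h cuvette adjustment in the text of elevated replicate 1. The text of elevated replicate 4 calls growth elevated and leaves out the gas. Arrays of the not-elevated group (4) are labelled as 0 h samples without mention of elevated CO2. Not-elevated replicate 1 differs from the other 3 of its group in its title code, and a letter stands where theirs have the word control. All plants shared wild-type Col-0 background, 20 °C, 50% humidity, 10 h of light and compost, and a description that calls the atmosphere normal stands with all 8 samples. Separate plants are not mentioned for the replicates, so a p-value here covers only spread among the samples, and that spread could be technical.

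The arrays hold 22810 probe sets each, all with their trimmed mean at 100 units, and Pearson's r between 2 arrays ran from 0.967 to 0.986 across the probe sets tested. Of the leaf markers, RCA, the rubisco activase gene, read 3157 to 3699.6 units in the elevated group and 2333 to 3434 units in the not-elevated group. It was the 1 of 15 mesophyll markers that the tables used here name on the array. Root hair marker EXPA7, the 1 of 7 root markers named, averaged 24.9 ± 11.5 units in the elevated group and 27.6 ± 1.90 units in the not-elevated group. Stomatal lineage genes were read for 3 of 5 markers, and their 2 tested members differed by -0.18 (SPCH) and 0.04 (FAMA) on the log2 scale. Flower (3), xylem (4) and phloem (2) markers were not named there. The 25S ribosomal RNA control, which reads a cytosolic RNA without a poly(A) tail, read 101, 191, 95.8 and 366 units in elevated replicates 1 to 4, against 112, 600.2, 147 and 73.4 units in not-elevated replicates 1 to 4. Not-elevated replicate 2 and elevated replicate 4 were thus the high arrays for that control, 1 in each group. The ratio of the 3′ to the 5′ probe set, a measure of RNA integrity, was 1.83 ± 0.36 in the elevated group and 1.80 ± 0.17 in the not-elevated group for actin (SD, n = 4 each). It was 1.15 ± 0.10 in the elevated group and 1.11 ± 0.08 in the not-elevated group for GAPDH, and 1.98 ± 0.17 in the elevated group and 1.80 ± 0.10 in the not-elevated group for ubiquitin.

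The comparison asks whether organelle messages of young leaves differed between elevated and not-elevated plants. None of the members did so past the threshold. Signals were compared as log2(signal + 10) with limma, with p-values adjusted by the Benjamini-Hochberg method over all 15296 probe sets whose mean signal reached 20 units, and a call was an adjusted p under 0.05. Of the 42 members 37 were tested, all 26 plastid genes and 11 of 16 mitochondrial ones, and 0 were called, where 0.314% of all probe sets tested were. An unadjusted p under 0.05 was reached by 4 of the 37 (10.8%), close to the 11.1% of all probe sets tested. Ranges of the groups were apart in 0 of the 37, against 6.11% of all probe sets tested. Lower values in the elevated group were seen in 19 of the 37, and in 49.6% of all probe sets tested, with a median log2 difference of -0.02 over the members and of 0.0013 over all. The 95% intervals of the single differences, not adjusted for their number, lay within a 2-fold change either way for 37 of 37 members and within 1.5-fold for 27. These intervals are on the log2(signal + 10) scale, which understates the change of dim genes. In leaf tissue a change in the number of organelles or of cells and a change in RNA per organelle cannot be told apart.

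**Figure D1:**
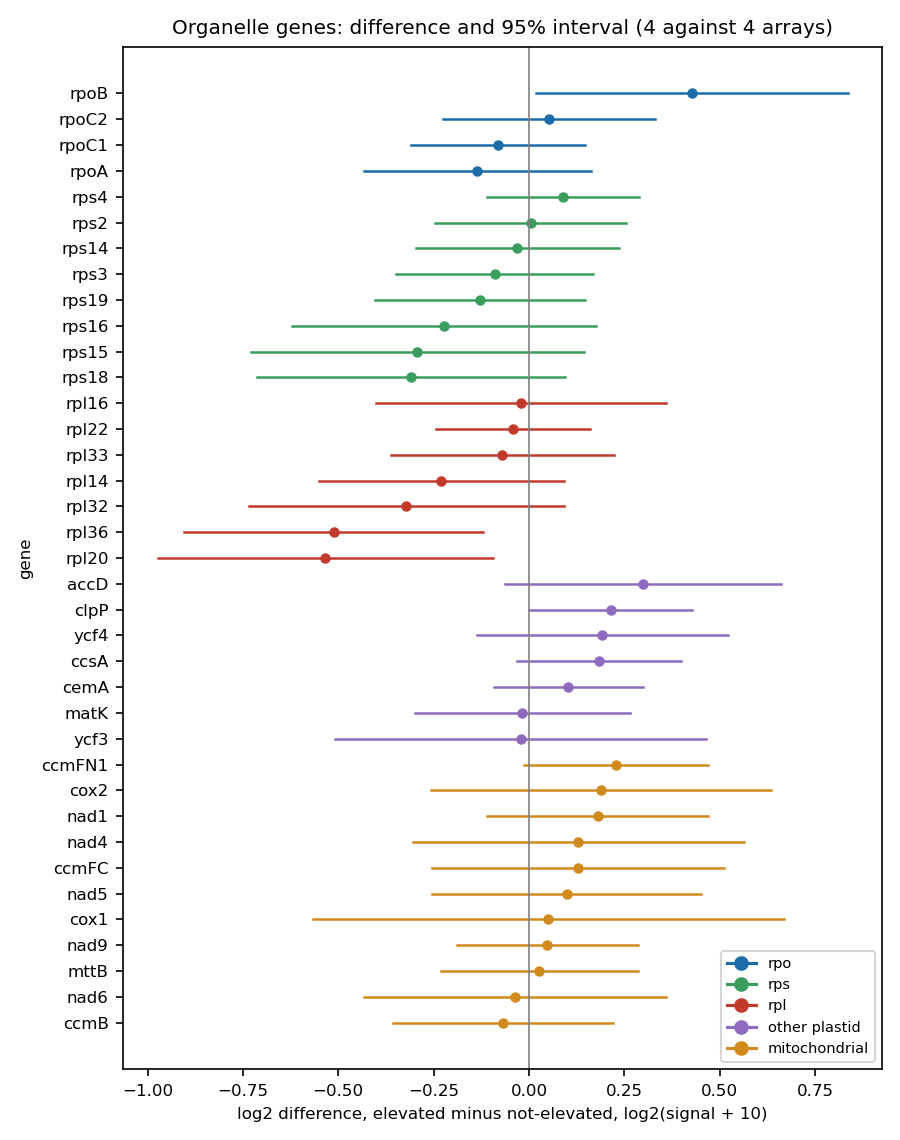
Log2 difference of each of the 37 tested members, elevated minus not-elevated, with its 95% interval from limma (4 against 4 arrays), ordered by class and size. The 7 rpl points lie below 0 and 5 of 7 other plastid points above it, and the intervals of 33 of 37 members hold 0.

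By class, the medians lay on both sides of 0. The rpl genes had a median log2 difference of -0.23, with 7 of 7 lower in the elevated group. The rps genes had a median of -0.11, with 6 of 8 lower. For the rpo genes it was -0.01, with 2 of 4 lower. Other plastid genes had a median of 0.18, with 2 of 7 lower, and mitochondrial genes 0.10, with 2 of 11 lower. The plastid photosynthesis genes, set beside them, had a median of 0.02, with 18 of 43 lower, 4 of 43 at an unadjusted p under 0.05 and 0 called. The direction of the rpo, rps and mitochondrial medians depended on the arrays used. With 1 array left out the rpo median ranged from -0.10 (elevated replicate 3) to 0.06 (elevated replicate 1), and it also lay above 0 when elevated replicate 2 (0.02) or not-elevated replicate 3 (0.0013) was dropped. Without both replicate 1 arrays the rpo median was 0.06, the rps median was 0.04, with 2 of 8 lower, and the mitochondrial median -0.09, with 6 of 11 lower. Without elevated replicate 1 alone the mitochondrial median was -0.01, also with 6 of 11 lower, and without not-elevated replicate 2 it was 0.17. The rps median lay below 0 with any 1 array left out, between -0.22 (elevated replicate 3) and -0.03 (not-elevated replicate 1). The median of the other plastid genes was 0.11 under quantile normalization, at which clpP had 0.13 and ccsA 0.11. The rpl median kept its sign in every fit run, with 5 to 7 of 7 lower when 1 array was left out and 6 of 7 without both replicate 1 arrays, but its size ranged from -0.32 (not-elevated replicate 4 dropped) to -0.12 (elevated replicate 4 dropped).

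Of the polymerase genes, rpoB had the smallest p-value. This gene encodes the beta subunit and read 32.8, 51.1, 51.0 and 55.8 units in elevated replicates 1 to 4, against 21.7, 49.7, 27.0 and 35.7 units in not-elevated replicates 1 to 4. Not-elevated replicate 2 came close to 3 of the elevated arrays, and elevated replicate 1 lay among the remaining not-elevated ones, so the groups overlapped. Means were 47.6 ± 10.2 units in the elevated group and 33.5 ± 12.2 units in the not-elevated group (SD, n = 4 each), a log2 difference of 0.43 ± 0.19 (SE; 95% interval 0.02 to 0.84) and a limma adjusted p of 0.423 (unadjusted 0.0412). With 1 array left out the difference ranged from 0.29 when not-elevated replicate 1 was dropped to 0.59 when not-elevated replicate 2 was. It was 0.53 with a pseudocount of 1 and 0.23 with a pseudocount of 50, and rpoB fell under the alternative minimum of 50 units.

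The gene for the alpha subunit, rpoA, read 773, 826, 684 and 583 units in elevated replicates 1 to 4, against 895, 726, 943 and 606 units in not-elevated replicates 1 to 4. The ranges of the groups overlapped over most of their length (log2 difference -0.14, limma adjusted p = 0.782). The first part of the beta-prime subunit, rpoC1, read 931, 990.5, 1291 and 930.5 units in elevated replicates 1 to 4, against 1162, 1004, 1104 and 1078 units in not-elevated replicates 1 to 4. Elevated replicate 3 stood above the other 7 arrays, and the other 3 elevated arrays stood below the 4 not-elevated ones (log2 difference -0.08, adjusted p = 0.837). For rpoC2, the second part of that subunit, signals were 238, 266, 392 and 310.1 units in elevated replicates 1 to 4, against 267, 322, 283 and 273 units in not-elevated replicates 1 to 4. Elevated replicate 3 was again the highest array (log2 difference 0.05, adjusted p = 0.923). In bacteria the beta and beta-prime genes form 1 operon, as rpoB, rpoC1 and rpoC2 do in plastids, and their log2 differences here were 0.43, -0.08 and 0.05. Their mean signals over the arrays were 40.6, 1061 and 294 units.

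Among the ribosomal genes of the large subunit, rpl36 and rpl20 gave the lowest p-values. Proteins of both are constituents of the 50S particle. The signal of rpl36 was 241, 422, 352 and 357 units in elevated replicates 1 to 4, against 456, 375, 714 and 448 units in not-elevated replicates 1 to 4. Not-elevated replicate 3 was the high array and elevated replicate 1 the low one, and elevated replicate 2 lay above not-elevated replicate 2. Means were 343 ± 75.5 units in the elevated group and 498 ± 148 units in the not-elevated group (SD, n = 4 each), with a log2 difference of -0.51 ± 0.18 (SE; 95% interval -0.90 to -0.12) and a limma adjusted p of 0.297 (unadjusted 0.0142), and with 1 array left out it ranged from -0.63 when not-elevated replicate 2 was dropped to -0.33 when not-elevated replicate 3 was. The signal of rpl20 was 675, 539, 506 and 346 units in elevated replicates 1 to 4, against 943, 906, 687 and 489 units in not-elevated replicates 1 to 4. Elevated replicates 1, 2 and 3 stood above not-elevated replicate 4, and elevated replicate 1 came close to not-elevated replicate 3, so the ranges overlapped. Means were 516 ± 135 units in the elevated group and 756 ± 211 units in the not-elevated group, with a log2 difference of -0.53 ± 0.20 (SE; 95% interval -0.97 to -0.10) and a limma adjusted p of 0.340 (unadjusted 0.0206). With 1 array left out this one ranged from -0.72 when not-elevated replicate 4 was dropped to -0.36 when elevated replicate 4 was.

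**Figure D2:**
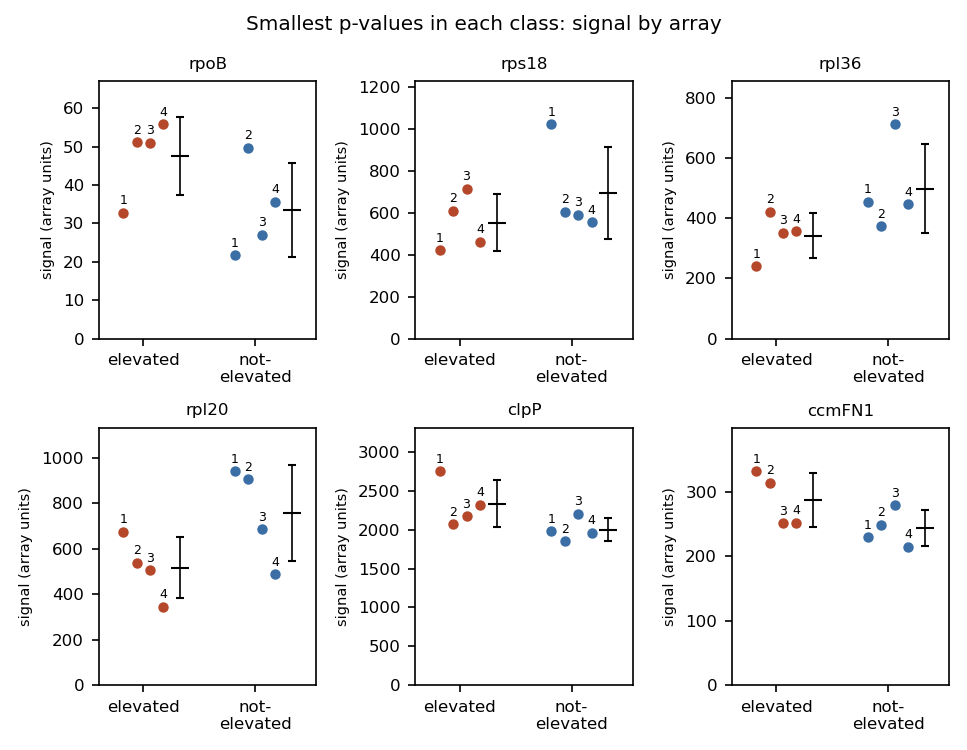
Signal in array units of rpoB, rps18, rpl36, rpl20, clpP and ccmFN1 in each array, numbered by replicate, with mean and SD (n = 4 each) beside the points, elevated on the left and not-elevated on the right. In all 6 genes the ranges of the groups overlap, and the highest rpl36 point is not-elevated replicate 3 at 714 units.

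The third large-subunit gene by p-value, rpl32, read 707, 756, 1287 and 754 units in elevated replicates 1 to 4, against 1543, 957, 1016 and 849 units in not-elevated replicates 1 to 4. Its highest array was not-elevated replicate 1 and its next highest elevated replicate 3, while the other 3 elevated arrays lay below the 4 not-elevated ones (log2 difference -0.32, limma adjusted p = 0.582). The difference ran from -0.52 when elevated replicate 3 was dropped to -0.14 when not-elevated replicate 1 was, and was -0.06 without both replicate 1 arrays. The brightest, rpl33, read 1641, 1980.3, 2429 and 2316 units in elevated replicates 1 to 4, against 2680.4, 1779, 2109 and 2206 units in not-elevated replicates 1 to 4. Its groups overlapped, with elevated replicate 1 the lowest array and not-elevated replicate 1 the highest (log2 difference -0.07, limma adjusted p = 0.899). The remaining members gave log2 differences of -0.23 (rpl14), -0.04 (rpl22) and -0.02 (rpl16), with adjusted p-values from 0.614 to 0.981. The mean signal of rpl16 was higher in the elevated group (1676 against 1659 units) although its log2 difference was negative.

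Log2 differences of the small-subunit genes ran from -0.31 to 0.09. The signal of rps18, whose protein belongs to the 30S particle, was 422, 610.0, 715 and 462 units in elevated replicates 1 to 4, against 1022, 606, 591 and 555 units in not-elevated replicates 1 to 4. Not-elevated replicate 1 lay far above the rest, and the other 3 not-elevated arrays lay within the range of the elevated ones. The log2 difference was -0.31 ± 0.19 (SE; 95% interval -0.71 to 0.09), with a limma adjusted p of 0.587, and -0.11 without not-elevated replicate 1.

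Next by p-value, rps15 read 330.4, 249, 303 and 208 units in elevated replicates 1 to 4, against 380.3, 509, 269.7 and 229 units in not-elevated replicates 1 to 4. Not-elevated replicate 2, the array with the highest 25S control, was the highest, and the log2 difference was -0.29 with all arrays and -0.09 without that one. Elevated replicate 4, the other high array for that control, was the lowest for rps15. For rps16 the array signals were 105, 164, 162 and 128 units in elevated replicates 1 to 4, against 249.8, 124, 167 and 133 units in not-elevated replicates 1 to 4. Here not-elevated replicate 1 was the high array, and the log2 difference was -0.22 with all arrays and -0.03 without that one. The brightest member, rps4, read 2383, 2268, 2368 and 2112 units in elevated replicates 1 to 4, against 2193, 1926, 2481 and 2016 units in not-elevated replicates 1 to 4 (log2 difference 0.09, limma adjusted p = 0.788). The elevated signals of rps4 all lay within its not-elevated range. For rps19, rps3, rps14 and rps2 the log2 differences were -0.13, -0.09, -0.03 and 0.0042, with adjusted p-values from 0.777 to 0.995.

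Other plastid genes were mostly higher in the elevated group without reaching the threshold. The gene clpP encodes the proteolytic subunit of the plastid Clp protease and read 2761, 2072, 2178 and 2327 units in elevated replicates 1 to 4, against 1981, 1851, 2211 and 1966 units in not-elevated replicates 1 to 4. Elevated replicate 1 was the highest array, and not-elevated replicate 3 lay above elevated replicates 2 and 3. The means were 2335 ± 303 units in the elevated group and 2002 ± 151 units in the not-elevated group (SD, n = 4 each), with a log2 difference of 0.21 ± 0.10 (SE; 95% interval 0.00 to 0.43) and a limma adjusted p of 0.444 (unadjusted 0.0491). Without elevated replicate 1 the difference was 0.13.

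The gene ccsA, for a protein of cytochrome c assembly in the thylakoid, read 2343, 2288, 2126 and 2504 units in elevated replicates 1 to 4, against 2041, 1757, 2421 and 1970.4 units in not-elevated replicates 1 to 4. Not-elevated replicate 3 lay within the elevated range and the other 3 of its group below it (log2 difference 0.18, adjusted p = 0.537). The acetyl-CoA carboxylase subunit gene accD, of fatty acid synthesis, read 473, 485, 422 and 365 units in elevated replicates 1 to 4, against 292, 418, 487 and 254 units in not-elevated replicates 1 to 4. The not-elevated arrays spanned a wider range than the elevated ones and held both the highest and the lowest signal (log2 difference 0.30, adjusted p = 0.548). The photosystem I assembly factor genes ycf4 and ycf3 gave log2 differences of 0.19 and -0.02, the envelope protein gene cemA 0.10 and the intron maturase gene matK -0.02, with adjusted p-values from 0.693 to 0.984. In ycf4, looked at after its values were seen, elevated replicate 1 read 525 units, below the other 7 arrays, and without that array the difference was 0.38 (adjusted p = 0.147).

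Setting the members in their gene clusters showed both like and unlike neighbours. In the large ribosomal cluster that ends with rpoA, 7 genes were measured in the order rps19, rpl22, rps3, rpl16, rpl14, rpl36 and rpoA, and their log2 differences were -0.13, -0.04, -0.09, -0.02, -0.23, -0.51 and -0.14, each below 0. Without both replicate 1 arrays those of rps19 and rps3 were 0.02 and 0.07, and without elevated replicate 4 those of rpl22 and rpl16 were 0.04 and 0.15. In the clpP cluster, clpP and rpl20 differed in opposite directions, 0.21 and -0.53. In the rpl33 cluster, rpl33 and rps18 had -0.07 and -0.31. In the cluster that begins with accD, accD, ycf4 and cemA had 0.30, 0.19 and 0.10, and their photosynthesis neighbours psaI and petA 0.0013 and -0.14. The psaA cluster held psaA and psaB at 0.22 and 0.26 and rps14 at -0.03. In the rps2 cluster, rps2 had 0.0042 and atpI, atpH, atpF and atpA had -0.10, 0.40, -0.08 and 0.03. Here atpI was dim at a mean of 54.0 units, against 944, 1292 and 2525 units for atpH, atpF and atpA. None of the cluster genes tested passed the threshold.

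**Figure D3:**
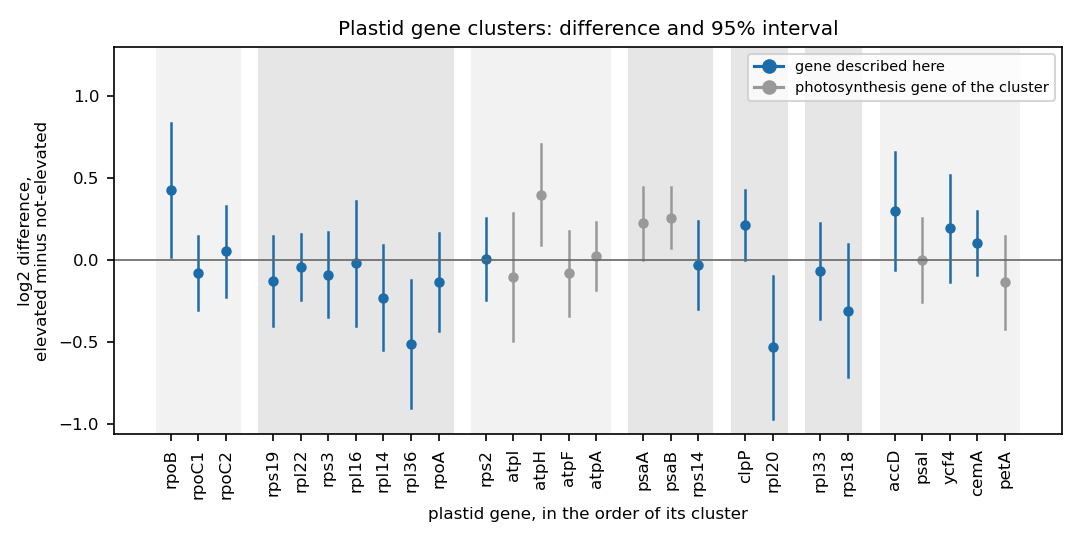
Log2 difference, elevated minus not-elevated, with its 95% interval from limma for genes of 7 plastid gene clusters in the order of each cluster, members in blue and photosynthesis genes in grey. The 7 genes of the second cluster, rps19 to rpoA, all lie below 0, and clpP (0.21) and rpl20 (-0.53) lie on opposite sides of it.

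The median SD within groups on the log2(signal + 10) scale was 0.25 over the 37 members and 0.24 over the 43 plastid photosynthesis genes, against 0.16 over all probe sets tested and 0.13 over those averaging 200 units or more. Some genes shared their high and low arrays and others did not. The brightest polymerase gene, rpoC1, had the most similar pattern over the 8 arrays to rps3 (Pearson's r = 0.92, Spearman's rho = 0.88), rps2 (0.89 and 0.86) and rpl32 (0.86 and 0.93), as a description over arrays that share their scaling. Without elevated replicates 3 and 4, the arrays farthest from the median of rpoC1, r was 0.96, 0.80 and 0.86. At the other end over the 8 arrays were rps14 (r = -0.77, rho = -0.48) and nad1 (-0.68 and -0.67), both dim at means of 37.1 and 36.1 units. The operon neighbour of rpoC1, rpoB, was at -0.26 and -0.48. Without elevated replicates 3 and 4, r was -0.59 for rps14, -0.76 for nad1 and -0.66 for rpoB. The signal of rps3 was 1147, 1339, 1724 and 1326 units in elevated replicates 1 to 4, against 1709, 1282, 1449.8 and 1423 units in not-elevated replicates 1 to 4. The signal of rps2 was 1117, 1216, 1647 and 1208 units in elevated replicates 1 to 4, against 1314, 1158, 1438 and 1220.4 units in not-elevated replicates 1 to 4. In each of rpoC1, rps3 and rps2 elevated replicate 3 was the highest array. Over all members tested, elevated replicate 3 lay above a gene's mean over the 8 arrays in 26 of 37 and not-elevated replicate 4 in 7 of 37.

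**Figure D4:**
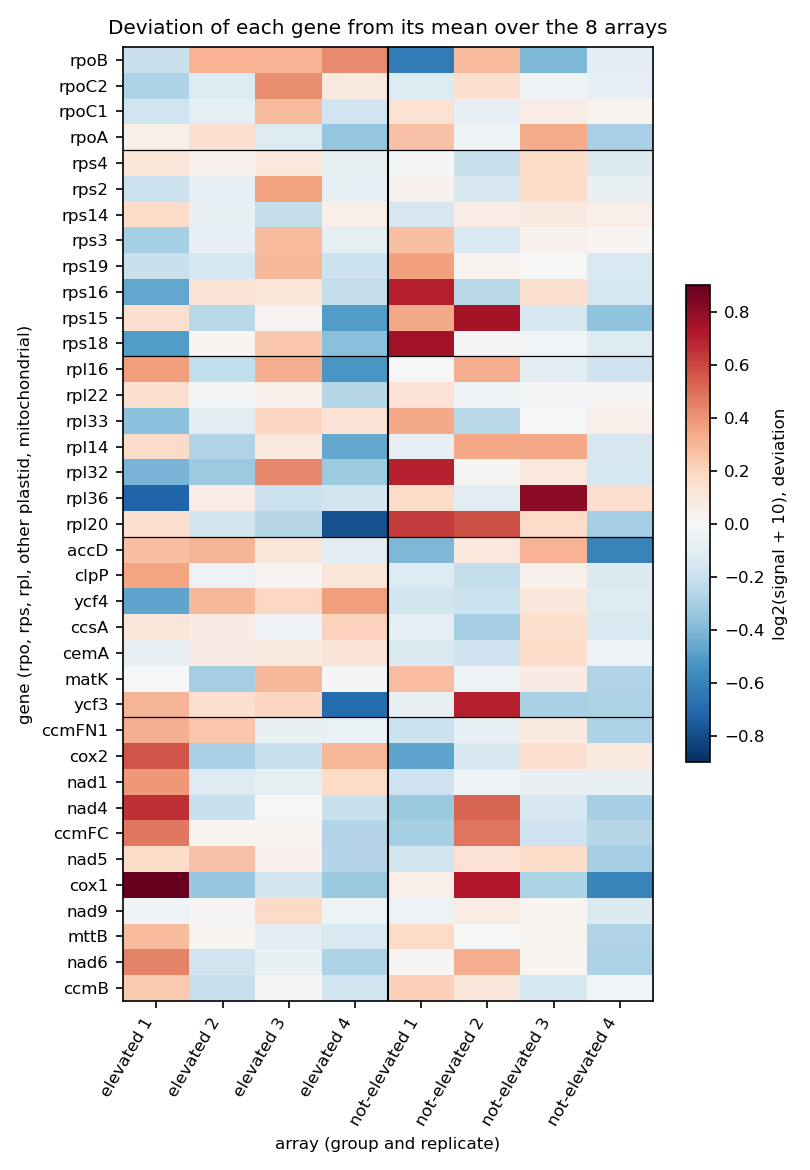
Deviation of log2(signal + 10) of each of the 37 tested members from its mean over the 8 arrays, with elevated arrays left and not-elevated arrays right of the black line. Red cells of cox1, nad4 and ccmFC stand together in elevated replicate 1 and not-elevated replicate 2, 1 array of each group.

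Mitochondrial genes were read in 16 members, of which 11 reached a mean of 20 units. Probe sets of 4 of the 11 are of the type that can read several transcripts (nad5, nad6, ccmFC and mttB). In the table used here 11 probe sets name a mitochondrial gene together with a gene of chromosome 2, which carries a large copy of mitochondrial DNA, so nuclear copies and the mitochondrial genes cannot always be told apart. The brightest, ccmFN1, encodes a part of the haem lyase for c-type cytochromes and had the smallest p-value. It read 332, 314, 251 and 252 units in elevated replicates 1 to 4, against 229, 249, 279 and 215 units in not-elevated replicates 1 to 4. Elevated replicates 1 and 2 lay above the other 6 arrays, and elevated replicates 3 and 4 lay within the not-elevated range. Means were 287 ± 42.1 units in the elevated group and 243 ± 28.0 units in the not-elevated group (SD, n = 4 each), with a log2 difference of 0.23 ± 0.11 (SE; 95% interval -0.01 to 0.47) and a limma adjusted p of 0.488 (unadjusted 0.0618).

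Subunit genes of complex I were next. The signal of nad1 was 49.8, 32.2, 33.0 and 41.9 units in elevated replicates 1 to 4, against 30.1, 34.6, 33.7 and 33.6 units in not-elevated replicates 1 to 4. Elevated replicates 1 and 4 were the high arrays, and the other 2 elevated arrays lay within the not-elevated range (log2 difference 0.18, limma adjusted p = 0.668). A second probe set of nad1 read 32.4, 32.9, 33.4 and 39.3 units in elevated replicates 1 to 4, against 29.5, 28.0, 30.6 and 24.8 units in not-elevated replicates 1 to 4, and its groups did not overlap (log2 difference 0.22, adjusted p = 0.545). Groups did not overlap in 6.11% of all probe sets tested. The remaining nad1 probe sets, all under the minimum signal and not tested, averaged lower in the elevated group. The cytochrome c oxidase gene cox2 read 38.0, 16.6, 18.2 and 29.9 units in elevated replicates 1 to 4, against 13.4, 19.3, 26.1 and 24.5 units in not-elevated replicates 1 to 4, near the minimum signal (log2 difference 0.19, adjusted p = 0.802). The groups overlapped, with elevated replicate 1 the high array and not-elevated replicate 1 the low one. The other complex I genes had log2 differences of 0.13 (nad4), 0.10 (nad5), 0.05 (nad9) and -0.04 (nad6). Of the remaining genes, ccmFC and ccmB, also of cytochrome c maturation, had 0.13 and -0.07, and mttB, related to a subunit of a bacterial protein translocase, had 0.03.

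Several mitochondrial genes, described here after their values were seen, were high in the same array of each group. Elevated replicate 1 was the highest elevated array in 9 of the 11 tested, not-elevated replicate 2 the highest not-elevated array in 6, and both held in 5 (cox1, nad4, nad6, ccmFC and nad1). Both also held in plastid genes, namely in 4 of the 26 plastid members (rps15, rpl14, rpl16 and ycf3), in 7 of the 43 plastid photosynthesis genes and in 10.5% of all probe sets tested. The core oxidase gene cox1 read 202, 77.1, 88.3 and 77.3 units in elevated replicates 1 to 4, against 105, 172, 80.4 and 63.1 units in not-elevated replicates 1 to 4. Elevated replicate 1 and not-elevated replicate 2 were the highest arrays, each well above the other 3 arrays of its group, and the group means of 111 ± 61.0 and 105 ± 47.8 units, elevated and not-elevated, were close (log2 difference 0.05, limma adjusted p = 0.969). The sign of that difference changed with the array left out, at -0.26 without elevated replicate 1 but 0.30 when not-elevated replicate 2 was left out. The signal of nad4 was 321, 173, 199.8 and 172 units in elevated replicates 1 to 4, against 156, 291, 179 and 160.5 units in not-elevated replicates 1 to 4. The signal of ccmFC was 130.0, 91.8, 92.2 and 73.9 units in elevated replicates 1 to 4, against 71.9, 131, 78.3 and 74.1 units in not-elevated replicates 1 to 4. In both genes the same pair of arrays was highest. The summed signal of the 11 tested mitochondrial genes was 1353, 933, 912 and 849 units in elevated replicates 1 to 4, against 853, 1146, 911 and 765 units in not-elevated replicates 1 to 4. Elevated replicate 1 held the highest signal of 8 of the 11 genes. The 25S control was high in not-elevated replicate 2 (600.2 units) and not in elevated replicate 1 (101 units), and elevated replicate 1 had the highest 3′ to 5′ ratios of actin (2.29), GAPDH (1.25) and ubiquitin (2.23). The part of these measures in the signals was not tested. In nad9, 1 of the 6 tested mitochondrial genes in which the 2 did not hold together, signals were 40.7, 42.5, 48.7 and 40.4 units in elevated replicates 1 to 4, against 40.2, 44.5, 43.0 and 37.7 units in not-elevated replicates 1 to 4.

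**Figure D5:**
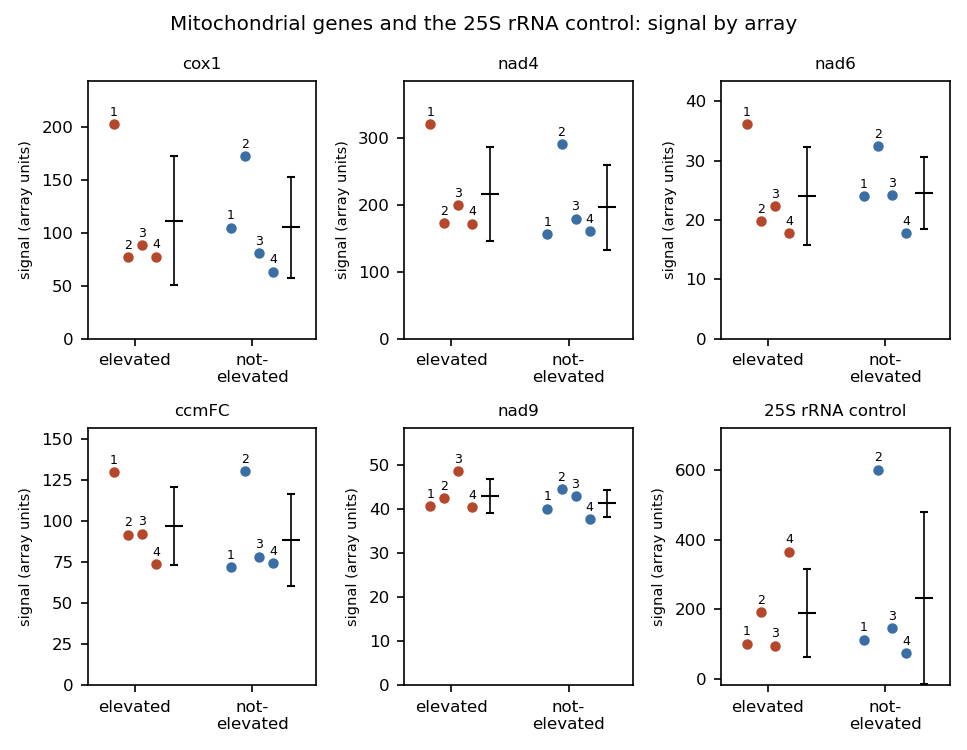
Signal in array units of cox1, nad4, nad6, ccmFC and nad9 and of the 25S ribosomal RNA control in each array, numbered by replicate, with mean and SD (n = 4 each), elevated on the left and not-elevated on the right. In cox1, nad4, nad6 and ccmFC, elevated replicate 1 is the highest elevated array and not-elevated replicate 2 the highest not-elevated one, while the control is highest in not-elevated replicate 2 (600.2 units).

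The 5 mitochondrial members under the minimum signal were not tested. Mean signals over the 8 arrays were 17.0 units for nad4L, 7.67 for nad7, 5.49 for ccmFN2, 5.21 for nad2 and 2.28 for matR, the maturase gene. Of these, ccmFN2 was the 1 member whose groups did not overlap. It read 6.39, 5.56, 7.11 and 6.24 units in elevated replicates 1 to 4, against 4.89, 4.97, 4.70 and 4.03 units in not-elevated replicates 1 to 4. These levels were too low to say that the transcript was present. Groups did not overlap in 6.11% of all probe sets tested, a share that leaves out probe sets under the minimum signal.

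Nuclear partners of the organelle genes, taken from lists of loci, showed no call either. Of 35 nuclear genes for plastid ribosomal proteins, 10 are named on the array by the tables used here and were tested. Of the 10, 9 were higher in the elevated group, with a median log2 difference of 0.06 (range -0.02 to 0.24). Past the threshold were 0 of them. Over all probe sets tested, 49.6% were lower in the elevated group. PSRP1 (AT5G24490), for a protein bound to plastid ribosomes, averaged 509 ± 63.6 units in the elevated group and 430.1 ± 62.6 units in the not-elevated group (SD, n = 4 each), a log2 difference of 0.24 with a limma adjusted p of 0.444. PRPL19B (AT4G17560), a large-subunit protein gene, averaged 948 ± 68.2 units in the elevated group and 878 ± 147 units in the not-elevated group (log2 difference 0.12). Without not-elevated replicate 2 the log2 difference of PRPL19B was 0.06. That array was the lowest of its group in most of the 10 genes, though not in PSRP1. In PRPL29 (AT5G65220) it read 1467 units, against 1784 to 1985 units in the other not-elevated arrays. The count of higher genes was not taken again without that array. Set beside these nuclear genes, the plastid-encoded rpl and rps genes had medians of -0.23 and -0.11, and the difference between the lists was not tested. Of 9 nuclear polymerase and sigma factor genes 1 was named and tested. This was RPOTmp (AT5G15700), for a phage-type polymerase of both organelles, which averaged 28.9 ± 11.2 units in the elevated group and 20.5 ± 7.81 units in the not-elevated group (log2 difference 0.33, adjusted p = 0.659). Its log2 difference ranged from 0.19 when not-elevated replicate 1 was dropped to 0.57 when elevated replicate 1 was, and was 0.16 with a pseudocount of 50.

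Of 13 proteins associated with the plastid polymerase 0 were named. Of 9 plastid RNA-binding proteins and RNases 1 was, CP29B (AT2G37220), with 1559 ± 198 units in the elevated group and 1548 ± 18.2 units in the not-elevated group. Among 21 nuclear genes for respiratory subunits, 9 were tested, 7 of them with a log2 difference above 0. Over all probe sets tested, 49.6% had one below 0. The median over the 9 was 0.04, with 0 past the threshold. Of the 7, SDH2-1 (AT3G27380) had 0.00037, with a mean of 332 units in each group. In COX5b and NDUFS4, also of the 7, not-elevated replicate 2 was the lowest array, at 338 and 502 units. The count was not taken again without that array. The cytochrome c genes CYTC-2 (AT4G10040) and CYTC-1 (AT1G22840) had the smallest p-values there and log2 differences of -0.21 and 0.11 (limma adjusted p = 0.619 and 0.713).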

How the data were processed

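The labels state that biotin-labelled total RNA was put on 8 ATH1 arrays. The authors deposited linear intensity values per probe set, and MAS5 (no version) is named in the submitters' processing notes. Each array's mean after trimming 2% at each end was 100 units, so a change shared by all transcripts is hidden. Detection calls were not used here. Further upstream steps were not stated.

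After 64 control probe sets were left out, 15296 of 22746 averaged 20 units or more over the 8 arrays and were tested as log2(signal + 10) with lmFit and eBayes with a variance trend (limma 3.58.1, R 4.3.3), two-sided, at a Benjamini-Hochberg adjusted p of 0.05. The fit was tested on simulated data. Gene names came from the platform's table and, by gene number, from RefSeq's table of TAIR10.1. Older gene numbers of 23 mitochondrial probe sets are not in that table and were matched by symbol or synonym to its mitochondrial chromosome. Coordinates and sequences are not used here.

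The members and lists were chosen with earlier results of these data known. Values in each array are given for the rpo genes, and in each other class for the brightest member, the 3 with the smallest p and any whose groups do not overlap, and the 2 smallest p-values of each nuclear list are named. Outside that rule, array values are given for rps3 and rps2 for their likeness to rpoC1. Those of cox1, nad4, ccmFC and nad9 were added after their values were seen. Alternatives were quantile normalization, scaling to one median, pseudocounts of 1 or 50, testing without a filter, a minimum of 50 units, a fit without variance trend, weights per array, a block for replicate number, the mean over all probe sets of a gene, each array left out and both replicate 1 arrays left out. The number of arrays limits the precision.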

Additional observations from a re-analysis of the deposited data

Results flagged for a closer look

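Dixon's test on each set of 4 replicates singled out values with 1 array standing apart. For the 42 members it was run 84 times and singled out 7 values, where chance alone would give about 4.2 at 1 in 20. For measures of whole arrays it was run 20 times and singled out 3, where chance alone would give 1. The test does not say which of the values are due to chance. Genes of 1 array share that array, so these groups are not independent.

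Elevated replicate 3 was high in rpoC1 (1291 units, against 930.5 to 990.5 in the other elevated arrays), rps19 (1916 units, against 1353 to 1397) and rpl32 (1287 units, against 707 to 756). Elevated replicate 1 was high in cox1 (202 units, against 77.1 to 88.3) and in the summed mitochondrial signal (1353 units, against 849 to 933). Elevated replicate 2 was low in the summed signal of the other plastid genes (9370.1 units, against 9999 to 10070.2).

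Not-elevated replicate 1, whose labels differ from those of its group, was high in rps18 (1022 units, against 555 to 606 in the other not-elevated arrays) and low in rps14 (32.3 units, against 38.9 to 39.6). Not-elevated replicate 2 was high in ccmFC (131 units, against 71.9 to 78.3) and in the 25S ribosomal RNA control (600.2 units, against 73.4 to 147).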

How the results depend on the processing

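With 1 array left out, 0 members were called in any of the 8 fits, the probe sets called ranged from 0 (without not-elevated replicate 3, with 1395 at an unadjusted p under 0.05) to 131 (without not-elevated replicate 1) against 48 with all arrays, and the median over the members from -0.065 to 0.051. Probe sets called numbered 132 with array weights, 144 without both replicate 1 arrays, 30 with quantile normalization, 28 with a pseudocount of 1, 9 without the variance trend and 1 with no filter. With the replicate block 50 were called, 1 of them a member, rpl20 (log2 difference -0.53, limma adjusted p = 0.0418, against 0.340 without the block). Arrays of the same number did not deviate together (correlations of their deviations from -0.18 to -0.04), so the numbers were not taken as pairs. Of the 37 members, 18 kept the sign of their log2 difference in every fit run, and 26 in those that did not leave out a single array. Signs changed without both replicate 1 arrays in rps16 0.093, rps18 0.00577, rps19 0.020, rps3 0.070, rpl33 0.14, matK 0.071, ccmFC -0.086, cox1 -0.23, cox2 -0.095 and nad4 -0.16. They also changed in rps2 with array weights (-0.00608) and quantile normalization (-0.037), in cox1 with array weights (-0.041) and in CP29B with quantile normalization (-0.064). With 1 array left out, log2 differences that changed sign ranged over rpoC2 -0.078 to 0.15, rps14 -0.090 to 0.036, rps2 -0.12 to 0.070, rpl16 -0.15 to 0.15, rpl22 -0.099 to 0.037, rpl33 -0.16 to 0.041, matK -0.12 to 0.083, ycf3 -0.13 to 0.21, ccmFC -0.0091 to 0.31, cox1 -0.26 to 0.30, mttB -0.063 to 0.092, nad4 -0.069 to 0.32, nad6 -0.19 to 0.067, nad9 -0.00127 to 0.078 and CP29B -0.058 to 0.079. None of these differences was called, and the cause of the changes was not tested. Mean signals of 5 mitochondrial members lay under 20 units, where signal over background limits any comparison.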

Other observations

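The 7 probe sets of nad1, whose message is joined from separately transcribed pieces, did not go one way. The 2 brightest averaged 39.2 ± 8.32 units in the elevated group and 33.0 ± 1.98 units in the not-elevated group, and 34.5 ± 3.23 units in the elevated group and 28.2 ± 2.54 units in the not-elevated group. Of the 5 below the minimum signal, 3 had group means of 10 units or more, at 11.9 ± 6.87 units in the elevated group and 20.5 ± 6.68 units in the not-elevated group, then 13.5 ± 2.06 units in the elevated group and 19.0 ± 3.43 units in the not-elevated group, and then 14.8 ± 7.43 units in the elevated group and 19.0 ± 8.26 units in the not-elevated group (SD, n = 4 each). The other 2 averaged 1.95 ± 1.01 units in the elevated group and 3.10 ± 1.67 units in the not-elevated group, and 3.17 ± 1.35 units in the elevated group and 3.29 ± 0.33 units in the not-elevated group. All 5 were lower in the elevated group on average, and none of the 5 was tested.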
